A study of Brassica napus with 27 samples.

Results

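Aminoacyl-tRNA ligases, also called aminoacyl-tRNA synthetases, were followed by their transcripts in leaves of winter oilseed rape (Brassica napus) after a synthetic auxin herbicide. Genes were taken by their description in the deposited table, which had to name a tRNA ligase or tRNA synthetase. They also had to reach an FPKM of 1 or more in 3 or more of the 27 libraries. FPKM is the number of fragments per kilobase of transcript, scaled by a factor for each library. In the deposited values that factor was not the total of reads, as described below. The description found 13 genes among 104573, and 10 of them passed the FPKM filter, 6 for alanine and 4 for lysine. A further 78 genes carried a tRNA synthetase domain without such a description, and 47 of these passed. The 57 genes that passed by either route are described together, and the 10 described genes are given separately throughout.

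The plants were seedlings of cultivar Visby at growth stage BBCH11, kept at a constant 15 °C, and all groups shared this background. One leaf per plant received a solvent control, halauxifen-methyl (Hal) at 0.5 µg per leaf or picloram (Pic) at 2.4 µg per leaf, as the sample labels give the doses. The controls are labelled as receiving no treatment, while the design text has them receive the solvent. Leaves were frozen after 2, 48 and 96 h, with 3 libraries from different plant material in each of the 9 groups. Whether each library held 1 plant or several from a pot of 4 was not stated. Because the doses differ, a difference between Hal and Pic cannot be told apart from a difference in dose, and each leaf was sequenced whole, so fewer cells of a type cannot be told apart from less RNA per cell.

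An aminoacyl-tRNA ligase joins an amino acid to the tRNA that reads its codons, using ATP, and so supplies the ribosome with charged tRNA. Plants translate in the cytosol, the chloroplasts and the mitochondria. The ligases for the organelles are encoded in the nucleus, and some plant ligases serve more than one compartment. The enzymes fall into classes I and II by the fold of their catalytic core. Alanine and lysine ligases of plants belong to class II.

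Among the 47 genes known only by a domain, the domain named the type of catalytic core. A core shared by aspartate, asparagine and lysine ligases was listed for 20 genes. The core shared by glycine, histidine, proline, serine and threonine ligases was listed for 15 genes. A phenylalanine-type core was listed for 6 genes and a cysteine-type core, the class I core in the set, for 6 genes. These genes are called by their type below, because the table gives them no amino acid of their own. A domain can also occur in a protein that is not a ligase.

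The libraries held between 15565637 and 19692242 reads worked back from FPKM and gene length, and the 57 genes took between 14147 and 37838 of them. The third Hal library at 2 h stood apart, with reads on 53523 genes against 56640 to 60785 in the others. Summed FPKM of 47 chlorophyll a-b binding protein genes lay between 76368 and 159899 in the libraries, as leaf tissue would have it, while 16 seed storage genes summed to at most 1.38 and 3 pollen or flower genes to at most 1.64. The summed level of 11 Rubisco small chain genes ranged from 11407 to 48569 FPKM. Of those tested, 10 of 10 were lower than control 48 h after Hal and 7 of 10 after 96 h, and 9 and 8 of 10 after Pic. Of 42 chlorophyll a-b binding protein genes tested, 22 and 32 were lower 48 and 96 h after Hal and 14 and 35 after Pic. These counts are as deposited, where 25.1 and 30.2 percent of all tested genes were lower after Hal and 17.9 and 26.4 percent after Pic. With equal totals of reads, 9 and 15 of the 42 were lower and 18 and 18 higher after Hal, and 7 and 20 lower and 20 and 9 higher after Pic. Of all genes 15.1 and 16.1 percent were then lower and 39.6 and 51.65 percent higher after Hal. After Pic these shares were 10.9 and 12.6 percent lower and 22.5 and 41.0 percent higher. The part of leaf composition in the results below was not tested. The FPKM denominators were 0.751 to 1.25 times the total of reads, so the scaling matters to any direction given below. Setting all libraries to equal totals shifted the median over all genes, on the log2 scale, upward by 0.25 at 48 h and 0.42 at 96 h after Hal, and by 0.14 and 0.29 after Pic. The shifts at 2 h were 0.01 and 0.02.

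The levels of the 57 genes spanned a wide range. Mean FPKM over the 27 libraries ran from 0.531 to 49.5 with a median of 8.69, and 45 genes reached the filter in every library. The gene of highest level was BnaC03g44930D, with a glycine, histidine, proline, serine or threonine type core. Of the 10 described genes, 9 reached the filter in every library. The exception was the alanine gene BnaA05g15950D, which reached an FPKM of 1 in the 3 Hal libraries at 2 h and in no other library, so its difference there had to exist for it to be kept. The 34 genes that did not pass had a mean FPKM of at most 0.425, and 9 of them had no read in any library. They include 3 described genes, for tyrosine, lysine and aspartate, whose highest FPKM in any library was 0.389. The domain genes BnaC08g15130D, BnaC03g35250D and BnaC01g21050D also passed in fewer than 9 libraries.

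The 4 lysine genes are BnaC05g39850D on scaffold LK032145 from 379119 to 382450, BnaA05g25810D on scaffold LK032576 from 18089 to 21472, BnaAnng09530D on scaffold LK032744 from 142230 to 145574 and BnaC03g73420D on scaffold LK033503 from 25641 to 29193, in the coordinates of the deposited table, whose genome build is not given in the sources used here. Their names place them on chromosomes C05 and A05, on the A genome without a chromosome, and on C03. In the sum over the 4 genes, the controls had 54.6, 55.1 and 54.1 FPKM at 2 h and the Hal libraries 71.8, 71.5 and 65.0 FPKM. At 96 h the controls summed to 35.0, 40.8 and 37.0 FPKM and the Hal libraries to 16.4, 17.9 and 17.9 FPKM. The Hal libraries lay above all controls at 2 h and below all controls at 96 h. A sum is given because copies of a gene in the A and C genomes can share reads.

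BnaA05g25810D took this course. Its FPKM was 19.3, 17.5 and 17.0 in the 2 h controls and 26.7, 25.2 and 21.0 after Hal. At 48 h it was 9.23, 12.2 and 11.2 in the controls and 4.86, 5.05 and 5.52 after Hal, and at 96 h 12.5, 14.3 and 12.3 against 3.68, 3.91 and 4.26. The Hal and control libraries did not overlap at any of the 3 times. The log2 fold changes of FPKM + 1 were 0.41 ± 0.10 (SE), −0.94 ± 0.10 and −1.50 ± 0.10, with adjusted p-values of 0.00483, 3.47e-08 and 4.57e-12 in limma, a linear model fitted across 46395 genes with Benjamini-Hochberg adjustment. With equal totals of reads they were 0.44, −0.60 and −0.94, all still past an adjusted p of 0.05. After Pic the gene had 15.8, 15.3 and 15.0 FPKM at 96 h, a log2 fold change of 0.22 against control that did not pass.

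BnaC05g39850D had the highest mean level of the lysine genes. Its controls had 19.0, 19.8 and 20.5 FPKM at 2 h and 16.8, 18.6 and 15.5 FPKM at 96 h. The Hal libraries had 22.0, 23.9 and 24.4 FPKM at 2 h, a log2 fold change of 0.23 that did not pass, and 6.81, 7.36 and 8.13 FPKM at 96 h. The 96 h libraries after Hal lay far below the controls, and the gene fell by 1.09 ± 0.09 on the log2 scale (adjusted p = 1.77e-10). Its fall by 0.48 at 48 h was lost with equal totals, where the value was −0.11 with an adjusted p of 0.330.

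BnaAnng09530D moved in opposite directions after the herbicides at 96 h. The controls had 4.55, 6.64 and 6.78 FPKM, the Hal libraries 3.98, 5.16 and 3.83 FPKM and the Pic libraries 10.2, 9.04 and 10.4 FPKM. The Pic libraries lay above all others, while the Hal and control libraries overlapped. The log2 fold change was −0.39 ± 0.13 for Hal (adjusted p = 0.0159) and 0.65 ± 0.13 for Pic (adjusted p = 0.000299). With equal totals the Hal value became 0.16 (adjusted p = 0.293) and the Pic value 1.05. At 48 h the gene was lower after both, by −0.82 ± 0.13 for Hal and −0.56 ± 0.13 for Pic.

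BnaC03g73420D was the lowest of the lysine genes, with a mean of 2.32 FPKM. At 48 h its controls had 2.40, 2.20 and 2.36 FPKM and the Pic libraries 1.32, 1.67 and 1.22 FPKM, with no overlap. The log2 fold change of −0.47 ± 0.16 (adjusted p = 0.0285) no longer passed with equal totals (−0.32, adjusted p = 0.132). It was also lost when the control replicate 1, the control replicate 3, the Pic replicate 1 or the Pic replicate 3 was left out, with values between −0.46 and −0.41.

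**Figure D1:**
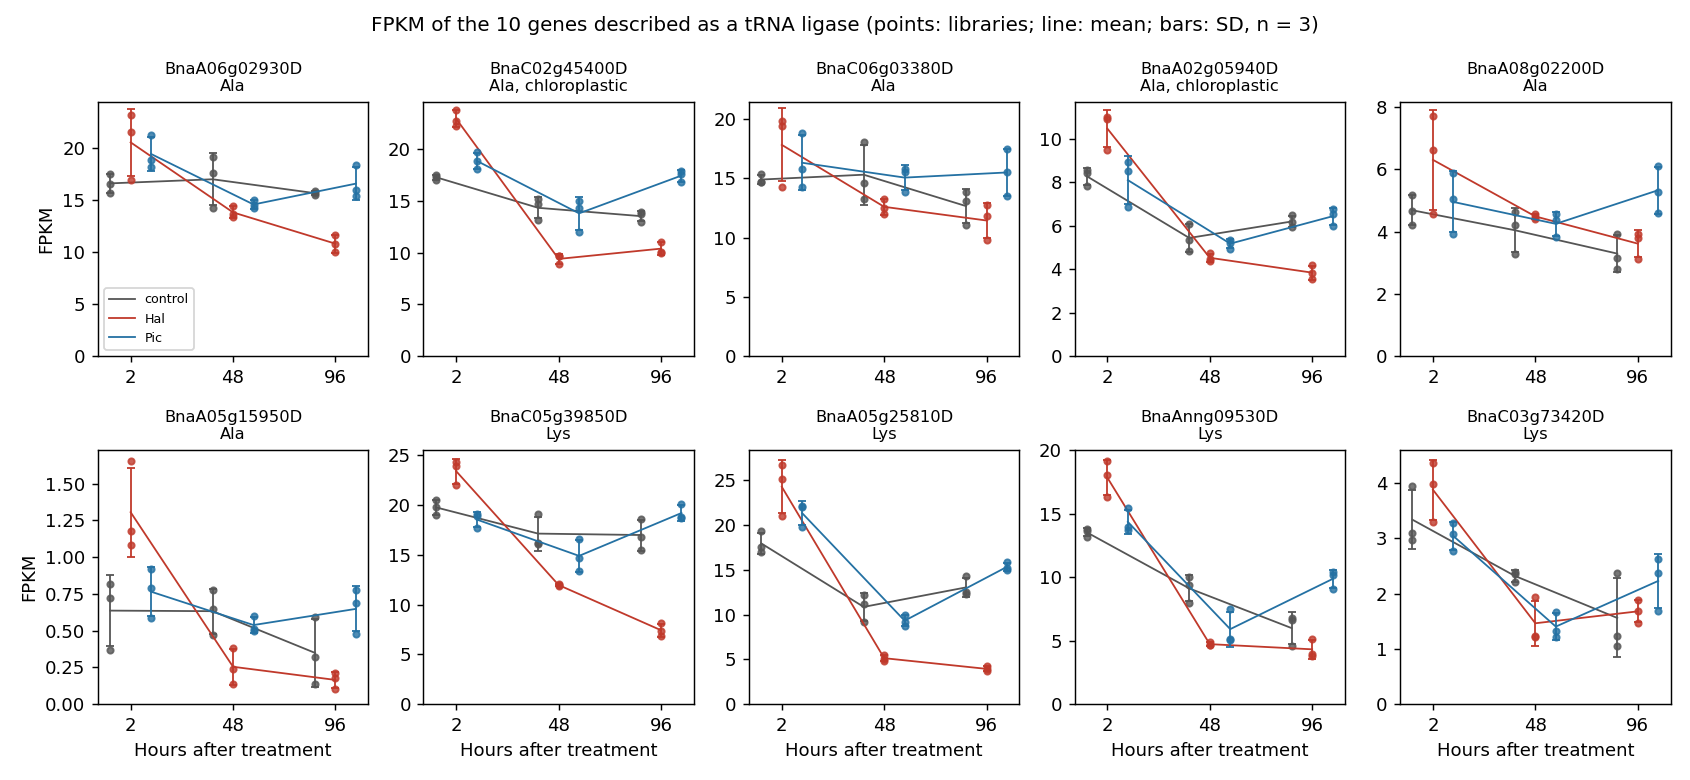
FPKM (vertical axis, linear, from 0) of the 10 genes described as a tRNA ligase, against hours after treatment (horizontal axis, evenly spaced), for control (grey), Hal (red) and Pic (blue). Points are libraries, lines join the means and bars are SD with n = 3. Hal libraries of the lysine gene BnaA05g25810D lie above the controls at 2 h and below them at 48 and 96 h.

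The 6 alanine genes include the 2 organelle-named members, BnaC02g45400D on chromosome C02 (scaffold LK032896, 96049 to 100280) and BnaA02g05940D on chromosome A02 (scaffold LK031993, 435993 to 440193), both described as probable chloroplastic alanine ligases. No mitochondrial member was found by description. BnaC02g45400D had 17.3, 17.1 and 17.5 FPKM in the 2 h controls and 22.7, 22.3 and 23.8 FPKM after Hal. At 48 h the controls had 13.2, 14.7 and 15.2 FPKM and the Hal libraries 8.88, 9.65 and 9.66 FPKM. The groups did not overlap at either time and changed places between them. The log2 fold changes were 0.39 ± 0.08 at 2 h (adjusted p = 0.00112) and −0.56 ± 0.08 at 48 h (adjusted p = 3.55e-06), the latter −0.20 with equal totals (adjusted p = 0.0601). At 96 h the direction itself depended on the scaling, with −0.35 as deposited (adjusted p = 0.000654) and 0.25 with equal totals (adjusted p = 0.0175).

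BnaA02g05940D had a lower level than BnaC02g45400D, with a mean of 6.49 FPKM against 15.3. Its controls had 7.83, 8.43 and 8.56 FPKM at 2 h, and the Hal libraries 9.50, 10.9 and 11 FPKM. Every Hal library lay above every control, yet the log2 fold change of 0.30 ± 0.10 (adjusted p = 0.0293) was lost without any one of the 3 controls, without Hal replicate 2 or without Hal replicate 3, at values of 0.27 to 0.33. At 96 h the controls had 6.47, 6.15 and 5.96 FPKM and the Hal libraries 3.53, 3.82 and 4.18 FPKM. The fall by 0.57 ± 0.10 (adjusted p = 2.49e-05) shrank to −0.03 with equal totals (adjusted p = 0.784). Against Pic, both chloroplastic genes were higher with Hal at 2 h, by 0.27 and 0.34, and lower at 96 h, by −0.70 and −0.62. With equal totals these 4 differences still passed. When the fit held the compared libraries alone, 0 described genes passed as higher at 2 h, so both differences at 2 h were lost.

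The other 4 alanine genes name no compartment. BnaA06g02930D, the alanine gene of highest mean level (chromosome A06, scaffold LK032136, 4685 to 11741), had 15.9, 15.7 and 15.5 FPKM in the 96 h controls and 9.98, 11.7 and 10.8 FPKM after Hal. These groups did not overlap, and its log2 fold change was −0.50 ± 0.11 (adjusted p = 0.000321), but 0.10 with equal totals. At 48 h the value was −0.27 as deposited and 0.09 with equal totals, and it did not pass without control replicate 2 or 3 or without any one of the 3 Hal libraries. BnaC06g03380D passed in none of the 6 comparisons with control. BnaA08g02200D passed in 1, after Pic at 96 h, with 3.94, 2.79 and 3.16 FPKM in the controls and 5.27, 4.61 and 6.12 FPKM after Pic (0.56 ± 0.15, adjusted p = 0.00415). The low gene BnaA05g15950D had 0.819, 0.724 and 0.366 FPKM in the 2 h controls and 1.65, 1.18 and 1.08 FPKM after Hal. The Hal libraries lay above the controls, which is given as a description with no test, because these 3 libraries alone brought the gene past the filter.

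At 2 h after Hal 26 of the 57 genes rose against the control, 0 fell and 31 did not pass, where 10.1 percent of all 46395 tested genes rose and 11.4 percent fell. The median log2 fold change was 0.31, against 0.00 over all tested genes, and 54 of the 57 values were positive. The values ran from −0.08 to 1.35. At an unadjusted p under 0.05, 34 were higher and 0 lower, and limma voom on the worked-back reads called 29 higher and 0 lower. Among the 10 described genes 5 rose and 0 fell, with 8 higher and 0 lower at an unadjusted p under 0.05 and 6 higher and 0 lower with voom. The count of described genes was 6 without the third Hal library, which stood apart, 3 without Hal replicate 1, Hal replicate 2, control replicate 1 or control replicate 2, and 2 without control replicate 3. For the 57 genes it was 29 without the third Hal library, and 18 to 29 with any 1 of the 6 compared libraries left out. With 0.1 in place of 1 added to FPKM it was 20. With equal totals, 29 of the 57 were higher and 0 lower. Without BnaA05g15950D, which the Hal libraries at 2 h brought past the filter, 25 of 56 genes and 4 of 9 described genes rose. For these 9 the count was 7 at an unadjusted p under 0.05, 5 with voom, 5 with equal totals, and 2 to 5 with any one of the 6 compared libraries left out.

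Among the types known only by a domain, the glycine, histidine, proline, serine or threonine type held the highest share of risen genes at this time, 11 of 15 with a median of 0.41. BnaC08g41780D of this type had 3.70, 3.34 and 3.5 FPKM in the controls and 8.35, 8.60 and 7.42 FPKM after Hal (1.01 ± 0.19, adjusted p = 0.000425). BnaC08g15130D of the same type went from 0.0893, 0.261 and 0.418 FPKM to 2.49, 1.90 and 2.21 FPKM (1.35 ± 0.14, adjusted p = 1.47e-07), a rise in a gene that reached the filter in 6 libraries, 3 of them these Hal libraries. In both genes the Hal libraries lay clear of the controls. The gene of highest level, BnaC03g44930D, had 51.5, 53.2 and 50.3 FPKM in the controls and 68.8, 64.4 and 64.0 FPKM after Hal (0.34 ± 0.08, adjusted p = 0.00485). In the aspartate, asparagine or lysine type 7 of 20 rose, in the cysteine type 2 of 6 and in the phenylalanine type 1 of 6. Of all tested genes 10.1 percent rose at this time.

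**Figure D2:**
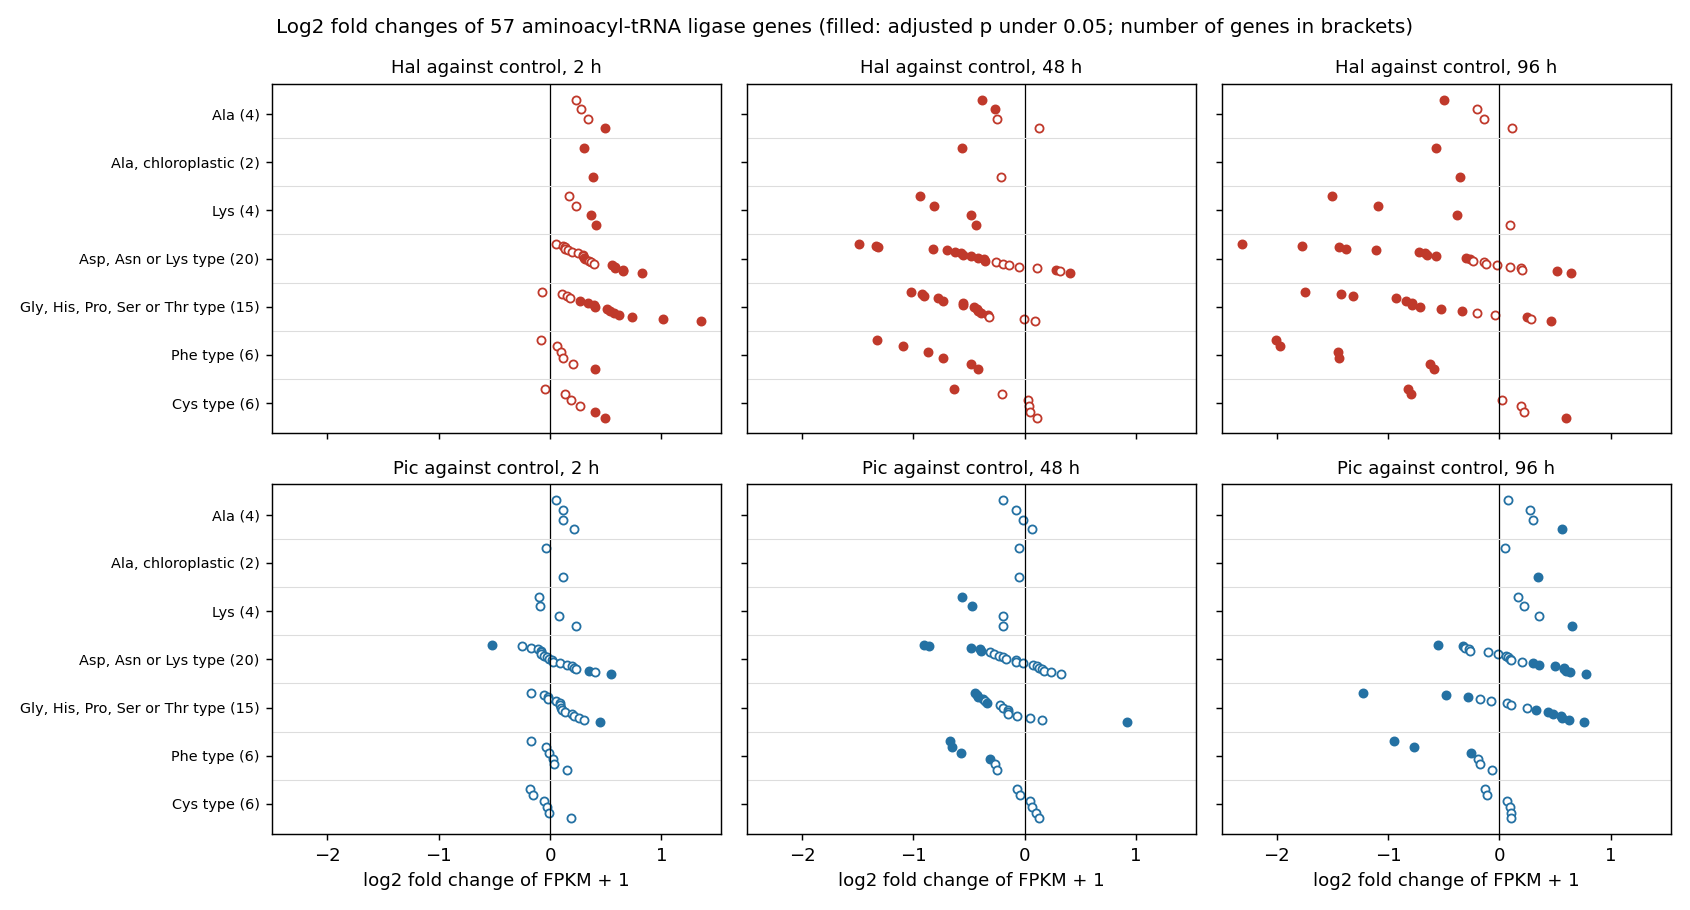
Log2 fold change of FPKM + 1 against control (horizontal axis) of each of the 57 genes, by amino acid or type of domain (vertical axis, number of genes in brackets), for Hal (red, top) and Pic (blue, bottom) at 2, 48 and 96 h. Filled points have an adjusted p under 0.05. For Hal, 26 genes are filled on the right at 2 h, and 38 and 35 on the left at 48 and 96 h.

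At 48 and 96 h after Hal most of the 57 genes were lower than the control as deposited, but with equal totals fewer than 1 in 2 were, and at 96 h more were then higher than lower. At 48 h 2 of the 57 were higher and 38 lower, against 23.3 and 25.1 percent of all genes, while with equal totals 8 were higher and 20 lower, against 39.6 and 15.1 percent. At 96 h 5 were higher and 35 lower, against 29.1 and 30.2 percent, while with equal totals 21 were higher and 18 lower, against 51.7 and 16.1 percent. With that change the share of rises among all called genes went from 48.2 to 72.4 percent at the earlier time and from 49.1 to 76.2 percent at the later. Relative to the median of all genes the members' median was −0.44 at 48 h and −0.54 at 96 h, and with equal totals −0.38 and −0.43. As deposited, the values at 48 h lay between −1.49 and 0.41 and those at 96 h between −2.31 and 0.64. Of the called genes, 2 at 48 h and 8 at 96 h had the other sign with equal totals.

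Among the 10 described genes 0 were higher and 7 lower at 48 h and 0 higher and 6 lower at 96 h, and with equal totals 1 and 2 at 48 h and 4 and 2 at 96 h. No described gene was higher at an unadjusted p under 0.05 or with voom at either time. The count of 7 was 4 without Hal replicate 1 at 48 h. All 4 lysine genes were lower at 48 h as deposited, and 2 of them with equal totals. The 2 higher among the 57 at 48 h, BnaA03g30000D (0.41) and BnaA01g06010D (0.28, named after its value was seen), were 0 without control replicate 1 or Hal replicate 1 and 1 without Hal replicate 3. BnaA03g30000D had 0.569, 0.671 and 0.816 FPKM in the controls and 1.51, 1.18 and 1.05 FPKM after Hal, close to the FPKM filter.

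The phenylalanine type was the one class with every tested gene lower after Hal at both late times. All 6 passed at 48 h, with a median of −0.80, and all 6 at 96 h, with a median of −1.45. Of all genes 25.1 and 30.2 percent were lower. With equal totals 4 of 6 passed at each time, with medians of −0.45 and −0.87, against 15.1 and 16.1 percent. At 96 h after Pic 3 of 6 were lower and 0 higher, against 26.4 and 22.2 percent, with a median of −0.23. With equal totals 2 were lower and 2 higher after Pic, against 12.6 and 41.0 percent, with a median of 0.21. BnaC08g29030D, the gene of this type with the highest mean, had 46.4, 53.9 and 48.0 FPKM in the 96 h controls, 13.3, 11.1 and 10.3 FPKM after Hal and 25.1, 27.2 and 23.1 FPKM after Pic. The Pic libraries lay between the Hal libraries and the controls. The gene fell by 2.01 ± 0.09 after Hal (adjusted p = 1.51e-15) and by 0.95 ± 0.09 after Pic (adjusted p = 5.49e-09), and with equal totals by 1.39 and 0.49. At 2 h it had 32.4, 36.5 and 34.7 FPKM in the controls and 32.2, 32.9 and 32.7 FPKM after Hal (−0.08 ± 0.09), so it did not share the early rise. BnaC06g16310D of this type did, with 16.0, 17.5 and 16.9 FPKM in the controls and 21.5, 24.1 and 22.2 FPKM after Hal (0.41 ± 0.08).

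Sums over a class are given as deposited. Summed over its 6 genes, the phenylalanine type had 152, 150 and 143 FPKM in the 96 h controls. It had 49.3, 45.1 and 47.7 FPKM after Hal and 97.9, 100.5 and 98.4 FPKM after Pic. On this scaling the cysteine type gave the contrast, with 29.9, 28.4 and 28.4 FPKM in the controls. It had 27, 23.7 and 26.3 FPKM after Hal and 29.3, 27.6 and 30.2 FPKM after Pic. In that class 1 of 6 genes was lower at 48 h after Hal, against 25.1 percent of all genes. At 96 h 2 were lower and 1 higher, against 30.2 and 29.1 percent. With equal totals 2 were lower and 4 higher at 96 h, against 16.1 and 51.65 percent. At 96 h after Pic 0 of the 6 passed as deposited. With equal totals 4 were higher and 0 lower after Pic, against 41.0 and 12.6 percent. The cysteine type gene of highest mean, BnaA05g11470D, was one of those lower after Hal. It had 6.86, 7.73 and 6.90 FPKM in the 96 h controls and 4.06, 3.33 and 3.72 FPKM after Hal (−0.80 ± 0.11, adjusted p = 6.55e-07). With equal totals the value was −0.25, close to the threshold (adjusted p = 0.0471). BnaA04g08860D of this type was the higher one, with 3.27, 2.87 and 4.12 FPKM in the controls and 5.81, 4.8 and 6.49 FPKM after Hal (0.60 ± 0.15, adjusted p = 0.00108).

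**Figure D3:**
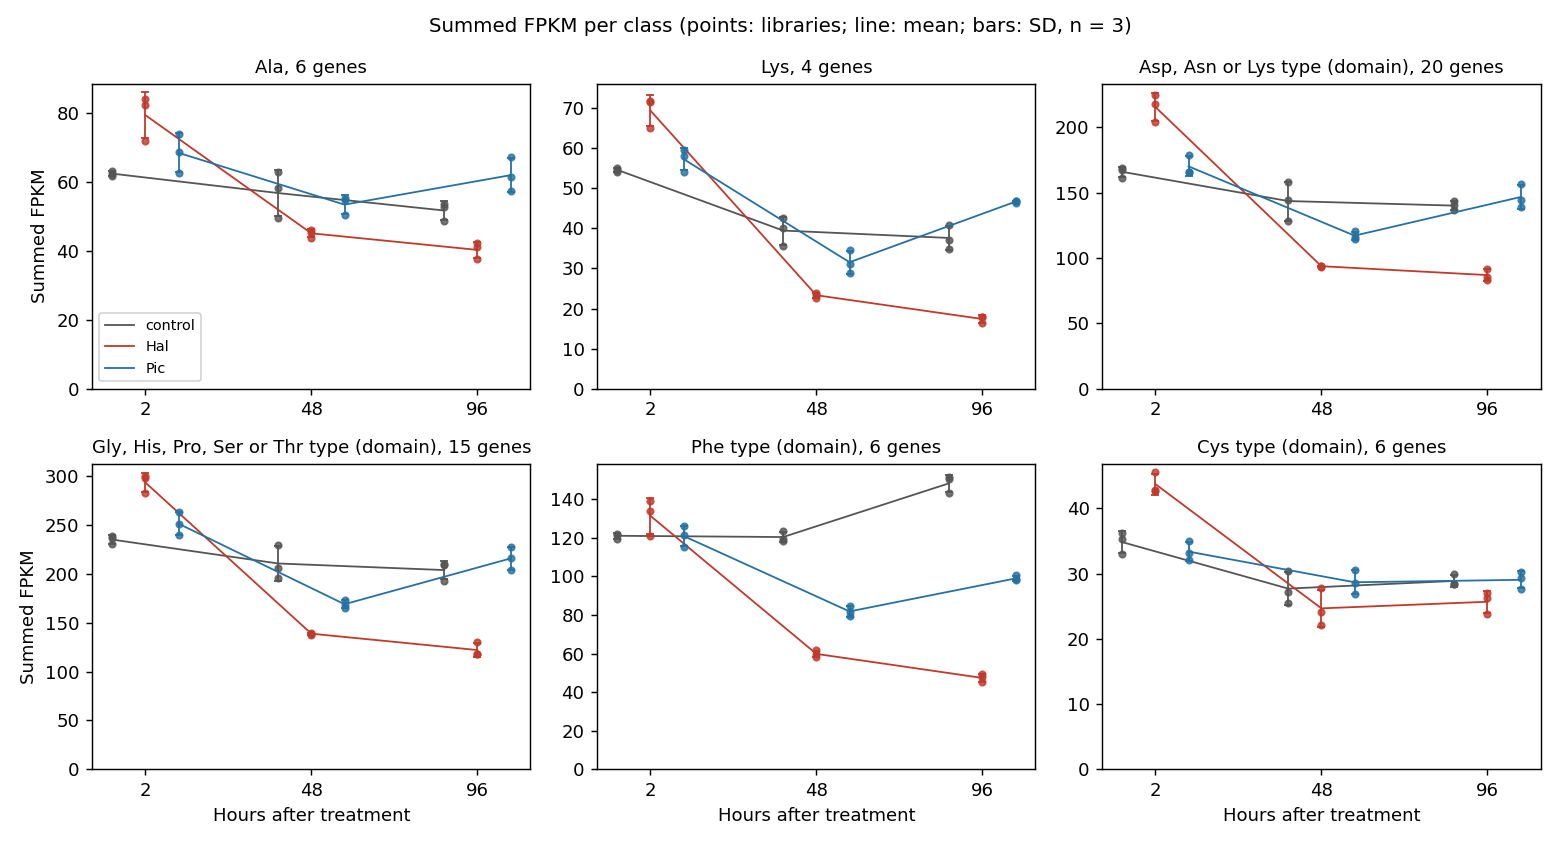
Summed FPKM (vertical axis, linear, from 0) over the genes of each amino acid or type of domain, against hours after treatment (horizontal axis, evenly spaced), for control (grey), Hal (red) and Pic (blue). Points are libraries, lines join the means and bars are SD with n = 3. Sums are as deposited. The phenylalanine type has 143 to 152 FPKM in the 96 h controls and 45.1 to 49.3 FPKM after Hal. The cysteine type lies between 23.7 and 30.2 FPKM in all groups at 96 h. With equal totals of reads, 4 of its 6 genes were higher than control at 96 h after each herbicide, with 2 lower after Hal and 0 after Pic.

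In the aspartate, asparagine or lysine type the genes diverged. At 96 h after Hal 11 of 20 were lower and 2 higher, against 30.2 and 29.1 percent of all genes. With equal totals 5 were lower and 7 higher, against 16.1 and 51.65 percent. BnaA01g17760D had the lowest value of all members, with 15.4, 14.2 and 14.0 FPKM in the 96 h controls and 2.49, 2.05 and 1.87 FPKM after Hal (−2.31 ± 0.12, adjusted p = 1.51e-14). Its value after Hal was −1.78 with equal totals. Pic libraries of this gene had 9.28, 8 and 11.8 FPKM as deposited, below the controls and above Hal. With equal totals 0 of the 20 genes of this type were lower at 96 h after Pic, and the lowest value was −0.12. Higher were 13, where 41.0 percent of all genes were higher and 12.6 percent lower. BnaC05g19840D, the gene of this type with the highest mean, was higher after both herbicides at 96 h, with 12.2, 10.7 and 12.9 FPKM in the controls, 20.5, 18.3 and 18.5 FPKM after Hal and 20.3, 20.6 and 22.4 FPKM after Pic. Its log2 fold changes were 0.64 ± 0.08 (adjusted p = 2.45e-07) and 0.77 ± 0.08 (adjusted p = 2.75e-08), and 1.24 and 1.21 with equal totals. At 48 h the same gene was lower after Hal, with 12.0, 13.7 and 13.7 FPKM against 20.3, 17.5 and 18.4 (−0.49 ± 0.08), but that fall did not pass with equal totals (−0.12). It was the single gene called lower at 48 h and higher at 96 h after Hal.

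In the glycine, histidine, proline, serine or threonine type 12 of 15 were lower and 0 higher at 48 h after Hal. At 96 h 10 were lower and 2 higher. Of all genes 25.1 and 30.2 percent were lower at these times and 23.3 and 29.1 percent higher. With equal totals 6 were lower and 1 higher at 48 h and 5 lower and 6 higher at 96 h. The shares of all genes were then 15.1 and 16.1 percent lower and 39.6 and 51.65 percent higher. BnaC08g41780D, which had risen at 2 h, was among the lower ones, with 3.13, 3.53 and 3.23 FPKM in the 96 h controls and 0.106, 0.385 and 0.374 FPKM after Hal (−1.74 ± 0.19, adjusted p = 3.5e-08, and −1.41 with equal totals). BnaC03g44930D had 52.4, 53.0 and 46.1 FPKM in the same controls and 28.4, 31.5 and 26.7 FPKM after Hal. Its fall by 0.78 ± 0.08 was not past the threshold with equal totals (−0.15, adjusted p = 0.145).

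The change of the Hal response between 2 and 48 h was tested as a difference of differences, that is Hal minus control at 48 h less Hal minus control at 2 h. It was lower for 45 of 57 genes and higher for 0, against 19.6 and 17.5 percent of all genes, and for 9 of the 10 described genes. With equal totals 31 were lower and 1 higher, and 5 of the 10 described genes were lower, against 12.9 and 29.9 percent of all genes lower and higher. At an unadjusted p under 0.05 the counts were 45 lower and 0 higher, and voom gave 45 and 0. The median was −0.86 and the range −1.92 to 0.27. Without the third Hal library at 2 h the count stayed at 45, and at 9 of the described. Without BnaA05g15950D the counts were 44 of 56 and 8 of 9. In all, 19 of the 57 genes (33.3 percent) were higher at 2 h and lower at 48 h after Hal, against 3.56 percent of all tested genes, and with equal totals 13 were, against 2.75 percent. The 19 include 4 of the 10 described genes. As deposited, 16 of the 19 were lower at 96 h too, but this longer pattern was not counted over all genes or with equal totals. At 96 h alone 35 of the 57 were lower as deposited and 18 with equal totals, against 30.2 and 16.1 percent of all genes. BnaA05g15950D is among the 19 and the 4, and its rise at 2 h had to exist for it to be kept. Its place in these counts is therefore not independent of the filter.

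BnaC01g07270D, of the aspartate, asparagine or lysine type, had the largest such change. It had 12.0, 10.4 and 10.7 FPKM in the 2 h controls and 17.8, 16.6 and 16.7 FPKM after Hal, then 10.4, 12.0 and 10.9 FPKM in the 48 h controls and 4.44, 3.74 and 3.23 FPKM after Hal. The Hal libraries lay above the controls at 2 h and below them at 48 h. The change was −1.92 ± 0.15 (adjusted p = 4.64e-10), and −1.61 with equal totals. BnaC06g16310D of the phenylalanine type changed by −1.28 ± 0.11 (adjusted p = 1.04e-09) and BnaC02g15040D of the glycine, histidine, proline, serine or threonine type by −1.17 ± 0.11 (adjusted p = 1.07e-08). Among described genes the changes of smallest p were −1.35 ± 0.14 for BnaA05g25810D, −0.95 ± 0.11 for the chloroplastic BnaC02g45400D and −1.19 ± 0.19 for BnaAnng09530D, with −1.03, −0.61 and −0.87 with equal totals, all past the threshold.

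After Pic few members moved at 2 h. Of the 57, 3 rose and 1 fell, against 10.7 and 9.37 percent of all genes, and of the described genes 0 passed in either direction, with 1 higher and 0 lower at an unadjusted p under 0.05 and 0 with voom. The median log2 fold change was 0.03. BnaC01g04490D rose from 4.66, 5.21 and 5.02 FPKM to 8.08, 6.92 and 8.27 FPKM (0.55 ± 0.15, adjusted p = 0.00885). BnaA09g44660D rose from 2.04, 1.80 and 1.42 FPKM to 2.84, 2.46 and 2.92 FPKM (0.45 ± 0.12, adjusted p = 0.0112), a call lost without control replicate 3 (0.36, adjusted p = 0.0804). The third risen gene was BnaC03g66410D (0.35). BnaA10g10830D was the one that fell, from 13.1, 13.8 and 14.1 FPKM to 10.3, 8.54 and 8.92 FPKM (−0.52 ± 0.11, adjusted p = 0.000804), while the Hal libraries had 15.6, 16.8 and 17.1 FPKM.

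At 48 h after Pic 16 members were lower and 1 higher, against 17.9 and 13.9 percent of all genes, and with equal totals 7 were lower and 5 higher, against 10.9 and 22.5 percent. The share of rises among all called genes went from 43.7 to 67.4 percent with that change. The described genes gave 2 lower and 0 higher, with 3 lower and 0 higher at an unadjusted p under 0.05 and 2 lower and 0 higher with voom. That count was 1 without control replicate 3, Pic replicate 1 or Pic replicate 3. The lowest value was that of BnaC01g07270D, with 6.42, 5.18 and 4.87 FPKM against 10.4, 12.0 and 10.9 in the controls (−0.90 ± 0.11, adjusted p = 5.35e-07). BnaA01g17760D followed, with 6.22, 5.39 and 7.14 FPKM against 11.1, 12.7 and 12.4 (−0.86 ± 0.12, adjusted p = 2.76e-06). BnaA09g44660D was the one higher, with 2.87, 2.86 and 3.01 FPKM against 1.02, 1.04 and 1.16 (0.92 ± 0.12, adjusted p = 3.08e-06). Without control replicate 2 the count of higher genes was 2.

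At 96 h after Pic 18 members were higher and 8 lower, against 22.2 and 26.4 percent of all genes, and with equal totals 39 were higher and 3 lower, against 41.0 and 12.6 percent. The share of rises among all called genes went from 45.6 to 76.5 percent. Relative to all genes the members' median was 0.11, and 0.18 with equal totals. The described genes gave 3 higher and 0 lower, with 5 higher and 0 lower at an unadjusted p under 0.05 and 3 higher and 0 lower with voom. The count of 3 was 5 without control replicate 2, and the 8 lower among the 57 were 5 without control replicate 1. BnaC09g03450D rose from 0.443, 0.0877 and 0.612 FPKM to 1.58, 1.04 and 1.35 FPKM (0.76 ± 0.13, adjusted p = 4.33e-05). BnaC08g15130D had the lowest value (−1.23 ± 0.14, adjusted p = 1.79e-07), with 1.53, 1.18 and 1.68 FPKM in the controls and 2 of 3 Pic libraries listed at 0, the third at 0.147. This gene reached the FPKM filter in these 3 controls and the 3 Hal libraries at 2 h alone, and either group would have kept it. Its p-values here and at 2 h after Hal each rest on a group that reached the filter. They are not taken as independent of it. At this time 8 genes were lower after Hal and higher after Pic, against 1.64 percent of all tested genes, and 8 were lower after both, against 19.0 percent. With equal totals these counts were 8 and 3, against 2.18 and 7.56 percent. BnaC02g45400D and BnaAnng09530D were among the first 8 as deposited, but their Hal values with equal totals were 0.25 and 0.16. Both herbicides were compared with the same controls. The Pic response changed from 2 to 48 h in 14 genes, all downward, against 13.4 percent of all genes downward and 9.65 percent upward, and with equal totals in 9 downward and 4 upward, against 9.81 and 13.8 percent.

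Hal and Pic were also compared directly. At 2 h 22 of the 57 were higher with Hal and 0 lower, against 9.04 and 11.2 percent of all genes, with 33 and 0 at an unadjusted p under 0.05, 29 and 0 with voom, and 21 and 0 with equal totals. The 22 became 14 without Hal replicate 2 or without Pic replicate 2, 21 without the third Hal library, and 9 when the fit held the compared libraries alone. At 48 h 0 were higher and 26 lower, against 14.6 and 16.8 percent, with 0 and 27 at an unadjusted p under 0.05, 0 and 25 with voom, and with equal totals 0 and 16. The median difference at 96 h was −0.67, with 2 higher and 43 lower, against 23.0 and 22.0 percent, and with equal totals 5 and 37, against 31.8 and 18.0 percent. The 2 higher were BnaA03g10650D (0.79) and BnaA04g08860D (0.50). Of the described genes 9 of 10 were lower at 96 h, and 7 with equal totals. The largest difference among described genes was that of BnaA05g25810D at −1.73 ± 0.10 (adjusted p = 1.01e-12), where the 3 Hal libraries had 3.68 to 4.26 FPKM and the 3 Pic libraries 15.0 to 15.8 FPKM.

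The A and C genome copies gave like counts. At 2 h after Hal 13 of 29 A genome genes and 13 of 28 C genome genes were higher, against 10.1 percent of all tested genes. At 48 h 19 of each were lower as deposited, and at 96 h 18 and 17, against 25.1 and 30.2 percent of all genes. Counts with equal totals were not split by genome. Over both genomes the 38 lower at 48 h and 35 at 96 h were 20 and 18 with equal totals. The medians at 96 h were −0.50 and −0.60. How reads that match both copies were counted is not given in the sources used here, so single copies are less certain than sums.

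Other genes of translation were counted in the same fit, from lists by description. Of all tested genes, 10.1 percent were higher and 11.4 percent lower at 2 h after Hal. At 48 h the shares were 23.3 and 25.1 percent, or 39.6 and 15.1 percent with equal totals. Translation initiation factors, which place the ribosome on the mRNA, had 8 of 49 higher and 1 lower at 2 h after Hal, and 1 higher and 36 lower at 48 h, or 1 and 21 with equal totals. Elongation factors, which bring the charged tRNA to the ribosome and move it along, had 5 of 9 higher and 0 lower at 2 h, and 0 higher and 8 lower at 48 h, or 0 and 7 with equal totals. Cytosolic ribosomal proteins had 20 of 116 higher and 9 lower at 2 h, with a median of 0.02, and 1 higher and 104 lower at 48 h, with a median of −1.57. With equal totals 2 were higher and 98 lower at 48 h. The ligase genes had a median of 0.31 at 2 h and −0.43 at 48 h on the same scale. The difference between lists was not tested.

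Organelle-type ribosomal proteins, of the chloroplast and mitochondrial ribosomes, had 8 of 8 lower at 48 and 96 h after Hal, against 25.1 and 30.2 percent of all genes. With equal totals 6 and 7 of 8 were lower, against 15.1 and 16.1 percent. Genes of tRNA modification and processing had 5 of 35 higher and 4 lower at 2 h, against 10.1 and 11.4 percent of all genes. At 48 h 4 were higher and 13 lower, against 23.3 and 25.1 percent. With equal totals 6 were higher and 9 lower at 48 h, against 39.6 and 15.1 percent. Of 4 genes for tRNA-dependent amidotransferases, which correct the amino acid on some organelle tRNAs, 2 rose at 2 h after Hal and 3 were lower at 48 h, 2 of them with equal totals. After Pic the cytosolic ribosomal proteins differed from the ligase genes in count at 2 h, with 6 higher and 53 lower of 116 against 3 higher and 1 lower of 57. Of all tested genes 10.7 percent were then higher and 9.37 percent lower. No gene was described as a peptide chain release factor. Of 1014 tRNA genes in the table, 14 passed the FPKM filter, and their levels were not used.

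**Figure D4:**
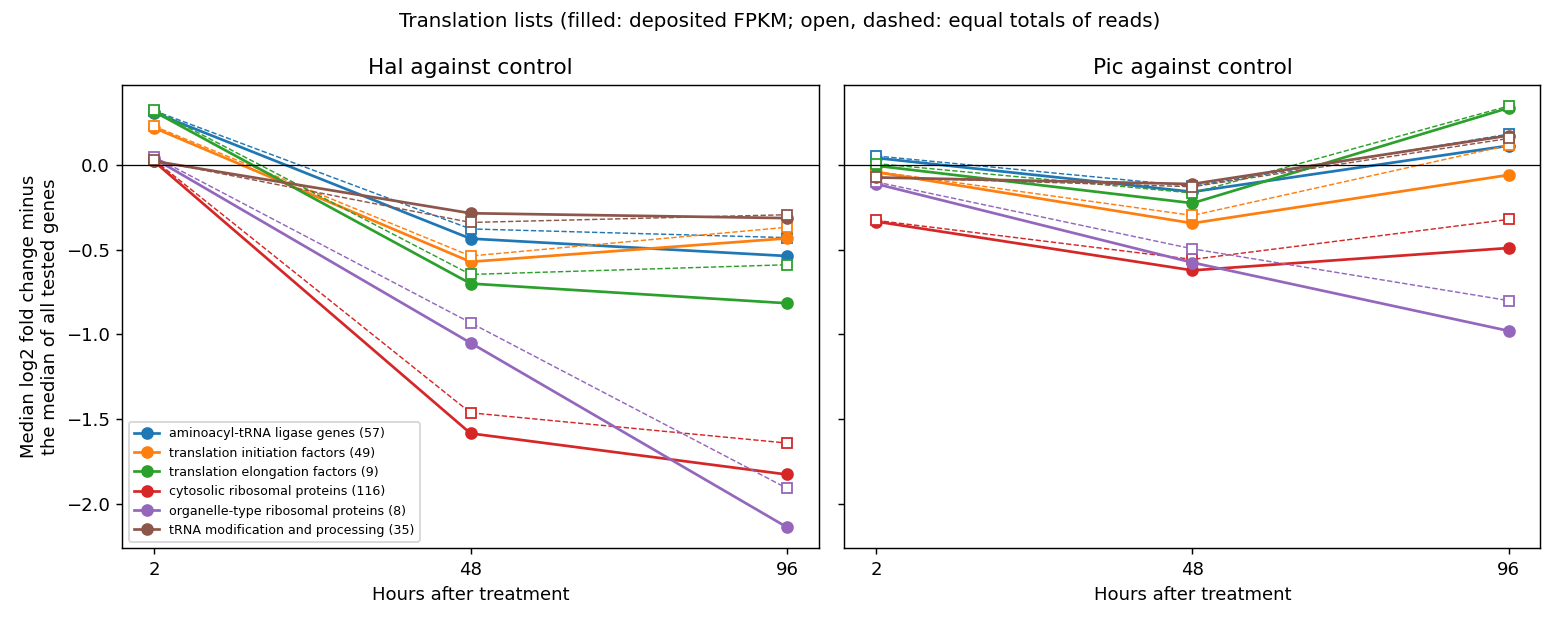
Median log2 fold change of FPKM + 1 of each list less the median of all tested genes (vertical axis) against hours after treatment (horizontal axis, evenly spaced), for Hal (left) and Pic (right), with the number of genes in brackets. Filled points with solid lines are deposited FPKM, and open points with dashed lines are equal totals of reads. The ligase genes go from 0.31 at 2 h to −0.44 and −0.54 after Hal, and stay between −0.16 and 0.11 after Pic as deposited.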

How the data were processed

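RNA of leaves from 27 samples was sequenced from NEBNext Ultra libraries. The authors deposited FPKM per gene with description, domain, coordinates and length. The submitters' processing notes name CASAVA, HISAT2, StringTie, DESeq2, edgeR and GATK without versions or roles, and the aligner settings, annotation and genome build are not given in the sources used here. FPKM times gene length came out as whole multiples of 1 step per library (within 0.1) for 100% of values, and the deposited FPKM denominators equal median-ratio size factors over 44248 genes.

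From the deposited FPKM, log2(FPKM + 1) was fitted with limma 3.58.1 (R 4.3.3, eBayes with trend) as 1 model of 9 groups, over 46395 genes that reached an FPKM of 1 in 3 or more libraries. Two-sided p-values were adjusted by Benjamini-Hochberg and called under 0.05. The pseudocount makes fold changes of low genes too small. Labels give separate plant material, and p-values measure the spread between these libraries. Replicate numbers did not pair samples. Alternatives were a pseudocount of 0.1, no filter, an FPKM of at least 5, equal totals of reads, fits of the compared libraries alone, a replicate block, limma voom on worked-back reads and each library left out. Counts without BnaA05g15950D were added after the data were seen. The fit was checked on simulated data.

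Genes named with values were, per comparison with control, the 2 largest rises and falls past the threshold without overlap of libraries, the gene of highest mean per amino acid or type, organelle-named genes and the 3 smallest p-values of the Hal change, for the 10 and for the 57 genes, plus the other described genes. The members, lists and tests were chosen with earlier results of these data known. The rule expected about 57 genes from the description, which gave 10, and genes with a tRNA synthetase domain make up the rest. Gene IDs of the files were not matched to RefSeq entries, so no sequence is given.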

Additional observations from a re-analysis of the deposited data

Results flagged for a closer look

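The response to Hal differed between 2 and 48 h in a test of the difference itself: 45 of the 57 genes, and 9 of the 10 described genes, had a lower response at 48 h than at 2 h, against 19.6 percent of all tested genes. Without BnaA05g15950D, which passed the FPKM filter through the Hal libraries at 2 h alone, the counts were 44 of 56 and 8 of 9. For Pic the same test found a lower response at 48 h in 14 of the 57 genes and in 2 of the 10, against 13.4 percent of all tested genes. With equal totals of reads the counts were 31 and 5 for Hal and 9 and 0 for Pic, against 12.9 and 9.81 percent of all genes. The count of 2 for Pic was 1 without control replicate 2 or 3 at 2 h, control replicate 2 or 3 at 48 h, Pic replicate 3 at 2 h, or Pic replicate 2 or 3 at 48 h.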

How the results depend on the processing

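Scaling was the choice that moved most counts. With equal totals of reads the 57 genes had 8 higher and 20 lower at 48 h after Hal (as deposited 2 and 38), 21 and 18 at 96 h (5 and 35), 5 higher at 2 h after Pic (3), 5 and 7 at 48 h (1 and 16), 39 and 3 at 96 h (18 and 8), 16 lower for Hal against Pic at 48 h (26), 5 higher at 96 h (2), 1 higher in the Hal change (0), and 4 higher and 9 lower in the Pic change (0 and 14). The 10 described genes then had 1 higher and 2 lower at 48 h after Hal, 4 and 2 at 96 h, 1 lower at 48 h and 10 higher at 96 h after Pic, 5 lower in the Hal change and 0 in the Pic change. Signs turned for BnaA06g02930D after Hal (0.094 at 48 h, 0.10 at 96 h) and, at 96 h, BnaC02g45400D (0.25) and BnaAnng09530D (0.16). In all, called genes with the other sign numbered 2 at 48 h and 8 at 96 h after Hal and 3 at 96 h after Pic. The cause was not tested.

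A pseudocount of 0.1 gave 3 described genes and 20 of 57 higher at 2 h after Hal, and 1 of 57 higher in the Pic change. Without the filter 1 of 57 was higher at 48 h after Hal and 2 after Pic, and 1 described gene higher at 2 h after Pic, with 1 lower for Hal against Pic at 2 h in both sets. An FPKM of at least 5 left 1 higher at 48 h after Hal, 0 after Pic with 1 described gene lower, and 1 higher in the Pic change, from fewer genes. Fits of the compared libraries alone gave 3 described genes higher at 2 h after Hal, 1 of 57 higher at 48 h after Hal and at 2 h after Pic, 9 of 57 and 0 of 10 higher for Hal against Pic at 2 h, and 1 described gene lower in the Pic change, from fewer samples. Voom gave 5 described genes higher for Hal against Pic at 2 h.

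Replicate numbers did not pair samples: correlations of same-numbered libraries ran from −0.208 to 0.109, and 0 of 9 group pairs had all above 0.1. The replicate block left 23 of 57 higher at 2 h after Hal, 1 higher at 48 h, 17 higher for Hal against Pic at 2 h and 1 described gene lower in the Pic change.

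Leaving out 1 library each, described genes higher at 2 h after Hal numbered 2 to 6, lower at 48 h 4 to 6, lower at 48 h after Pic 1 to 3, higher at 96 h 3 to 5 and lower in the Pic change 1 to 3. Of the 57, 18 to 29 were higher at 2 h and 0 to 2 at 48 h after Hal. After Pic 1 to 2 were higher at 48 h and 5 to 8 lower at 96 h. For Hal against Pic at 2 h 14 to 22 were higher. In the Pic change 0 to 1 were higher, which was 1 without control replicate 3 or Pic replicate 3 at 2 h or control replicate 2 at 48 h. Genes under an FPKM of about 1 rest on few reads, and small differences there were not detectable at this depth.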
